A study of Mus musculus with 6 samples.

Results

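The 10 keratin genes described here, of dental and oral epithelium, were followed through 6 one-colour arrays of newborn mouse teeth. They were chosen by name and found through the RefSeq accession of their probes: Krt5, Krt14, Krt15 and Krt17 of basal layers, Krt8, Krt18 and Krt19 of simple epithelium, and Krt1, Krt10 and Krt4 of the upper layers of stratified epithelium. All 10 had a probe, 11 probes in all (2 for Krt8), and each of these was well above background on all 6 arrays, so the 10 genes stood among the 26677 genes and unnamed probes tested. Total RNA came from tooth germs of the lower first molar at postnatal day 0, from 129/Sv mice, all labelled male. The labels give 3 samples of Perp-null mice (PN1 to PN3) and 3 of wild-type mice (WT1 to WT3). The labels state neither how many animals a sample holds nor which part of Perp was removed. The p-values therefore measure only the spread between these samples, which may be technical.

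Keratins are the intermediate filament proteins of epithelial cells. A filament needs a type I keratin, such as Krt14, Krt15, Krt17, Krt18, Krt19 or Krt10, paired with a type II keratin, such as Krt5, Krt8, Krt1 or Krt4. The pair in use changes with the layer: Krt5 with Krt14 in the basal layer, Krt1 with Krt10 in cornifying layers, Krt4 with Krt13 in the mucosa of the mouth, and Krt8 with Krt18 in simple epithelium. In the tooth germ the enamel organ, an epithelium of oral origin, carries Krt5, Krt14 and Krt17. Keratin filaments are anchored at desmosomes, the junctions in which the membrane protein Perp lies.

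The deposit holds 2 sets of values whose sample names disagree. One is the scanner file of each sample, the other a table of the authors' log2 values with a column per sample. The rank order of all 41174 gene probes in column WT1 was that of the raw median signal in the file deposited for WT1 (Spearman's rho 1.00000). Column PN1 had in the same way the order of the file deposited for WT2, column PN3 that of file PN2, column WT2 that of file WT3 and column WT3 that of file PN1 (rho 1.00000 for each). Column PN2 matched no file, with a highest rho of 0.980, and file PN3 matched no column, with a highest rho of 0.985. So 1 column followed the file of its own sample and 4 followed the file of another sample. Which assignment is right is not stated in the sources used here. Perp, described next, followed the labels in the columns only. Results are given for both, as files and as columns. Both draw on 5 of the same arrays and do not stand as independent measurements.

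**Figure D1:**
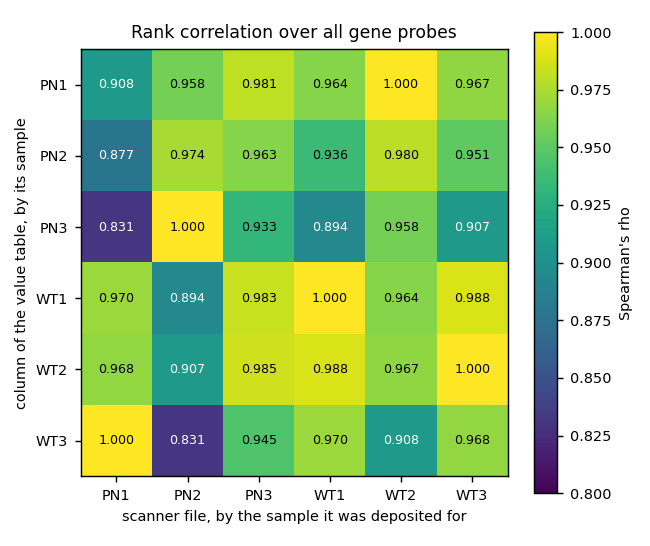
Spearman's rho over 41174 gene probes between each column of the authors' value table (rows, by sample) and the raw median signal of each scanner file (columns, by the sample it was deposited for). Column PN1 reaches 1.000 with file WT2, column PN3 with file PN2, column WT2 with file WT3 and column WT3 with file PN1, while column PN2 stays at 0.980 or lower.

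Perp followed the labels in the columns and not in the files. The columns gave 7.51, 8.24 and 7.26 for PN1 to PN3, against 17.01, 16.95 and 16.98 for WT1 to WT3. The files gave 5.87, −6.81 and 5.97 for PN1 to PN3, against 5.96, −5.06 and 5.91 for WT1 to WT3, in log2 units above or below the 75th percentile of that array. In the columns all 3 Perp-null values lay far under the wild-type ones, with a log2 difference of −9.31 (SE 0.24, limma with Benjamini-Hochberg adjustment, adjusted p = 6.18e-06). In the files the labelled groups overlapped, with a difference of −0.59 (SE 4.32, limma unadjusted p = 0.896). Perp was high on files PN1, PN3, WT1 and WT3 and low on files PN2 and WT2. Each file group thus mixed arrays of high and low Perp, so the file differences below do not measure loss of Perp. Directions below are those of the labels, and for the files they are those of arrays labelled Perp-null and wild type.

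Between 72.8% and 82.3% of gene probes were well above background per file, and saturation was flagged nowhere. Negative control spots, which carry no target, gave raw signals with medians of 127, 32 and 65.5 on files PN1 to PN3, against 90, 37.5 and 80 on files WT1 to WT3. Read through the matches, columns PN1 and PN3 came from the arrays with the dimmest negative controls (37.5 and 32), against 90, 80 and 127 for columns WT1 to WT3, and no file stands for column PN2. In the files each labelled group lay on 1 slide, so slide and group cannot be told apart there. Columns PN1, WT1 and WT2 matched files of slide 1, and columns PN3 and WT3 files of slide 2. The enamel organ was present as labelled: Amelx, the main enamel matrix gene, was at 6.65, 6.21 and 6.78 on files PN1 to PN3, against 6.95, 7.03 and 6.44 on files WT1 to WT3, and 11 of 12 listed enamel organ genes passed the filter. The Y-linked gene Ddx3y was at 5.94 and 6.67 in columns PN1 and PN3 and at 6.03 in column WT3, against 11.64 in column PN2 and 11.72 and 11.57 in columns WT1 and WT2. It was low in 3 of the 6 samples labelled male. The X-linked gene Xist went the other way, at 9.27 and 10.14 in columns PN1 and PN3 and 8.16 in column WT3. It was at 6.25 in column PN2 and at 5.63 and 5.68 in columns WT1 and WT2. Low Ddx3y with high Xist was thus spread unevenly over the labelled groups. The part of sex in the keratin values was not tested.

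In the files, 0 of the 10 keratins passed the test between the labelled groups, where the background was 0% of the 26677 features (limma, adjusted p under 0.05). An unadjusted p under 0.05 was found for 630 of the 26677 features, a smaller share than the threshold of 0.05 itself. With the replicate number as a block 1 feature was called in place of 0, and it was not among the 10. In the columns 1 of the 10 was called, Krt4 as lower, where 23.5% of all features were called (14.9% as lower, 8.64% as higher). The balance of calls turned without column PN3: 727 features were then called higher and 60 lower, against 2305 higher and 3964 lower with all 6 columns. At an unadjusted limma p under 0.05 it did not turn, with 3067 higher and 4909 lower without column PN3. With all 6 columns these were 3807 and 5754. Without column PN2 only 1 feature was called. With the replicate number as a block 0 of the 10 were called there, beside 0.00375% of features. The groups did not overlap for 0 of the 10 in the files, against 7.07% of all features (3.49% lower), and for 3 of the 10 in the columns (Krt14, Krt8 and Krt4, all lower), against 43.2% (24.4% lower). With 1 call at most, these counts cannot show whether the keratins differ from the other features. In the columns 9 of the 10 lay at or above the median value, where 2.41% of features were called. Krt4 lay under it, where 44.6% were. The smallest p an exact two-sided permutation test of 3 against 3 allows is 0.1, and it was reached in the columns by Krt14, Krt8 and Krt4.

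**Figure D2:**
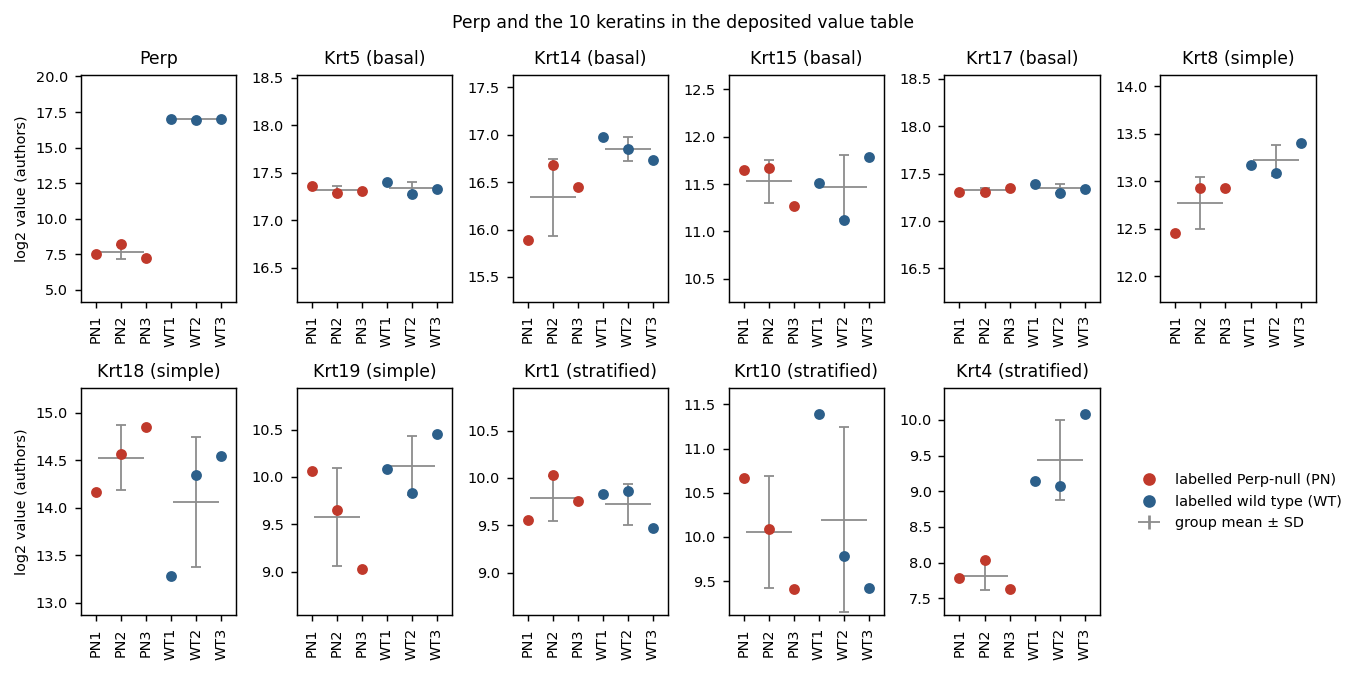
Log2 values of Perp and the 10 keratins in the 6 columns of the authors' table, labelled Perp-null (red) and wild type (blue), with group means ± SD as grey bars. Perp separates the groups, Krt14, Krt8 and Krt4 lie lower in all 3 Perp-null columns, and Krt5 and Krt17 stay within 0.13 and 0.09 log2 units.

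The basal keratins Krt5 and Krt17 had the narrowest ranges over the arrays of the 10. They were also the brightest of the 10 in both sets. The part of compression among bright signals in these narrow ranges was not tested. Krt5, the type II partner of the basal layer, gave log2 signals of 6.36, 6.18 and 6.27 on files PN1 to PN3, against 6.45, 6.44 and 6.20 on files WT1 to WT3. Its columns read 17.36, 17.29 and 17.31 for PN1 to PN3, against 17.40, 17.27 and 17.33 for WT1 to WT3. No array stood apart and the groups overlapped in both sets. The log2 difference of Krt5 was −0.095 in the files (95% interval −0.43 to 0.24, limma adjusted p = 1.00). In the columns it was −0.013 (95% interval −0.20 to 0.17, adjusted p = 0.934).

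Krt17, a type I keratin of epithelial appendages and of wounded epithelium, behaved much like Krt5. Its files read 6.39, 6.20 and 6.30 for PN1 to PN3, against 6.45, 6.40 and 6.22 for WT1 to WT3. Its columns read 17.31, 17.31 and 17.35 for PN1 to PN3, against 17.39, 17.30 and 17.34 for WT1 to WT3. The differences were −0.065 in the files (95% interval −0.40 to 0.27, limma adjusted p = 1.00) and −0.020 in the columns (95% interval −0.20 to 0.16, adjusted p = 0.895), with groups that overlapped in both.

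Krt14, the type I partner of Krt5, was less steady, and its sign differed between the files and the columns, in which sample names, scaling, background treatment and 1 array differ together. The files gave 5.68, 6.10 and 6.17 for PN1 to PN3, against 5.97, 5.31 and 5.82 for WT1 to WT3, with file WT2 the lowest. The difference there was 0.28 (95% interval −0.26 to 0.82, limma adjusted p = 1.00). The columns gave 15.89, 16.68 and 16.45 for PN1 to PN3, against 16.98, 16.85 and 16.73 for WT1 to WT3. All 3 Perp-null columns lay under all 3 wild-type columns, the nearest pair by 0.05. The difference was −0.51 (95% interval −0.95 to −0.075), and it did not pass after adjustment over all features (limma, unadjusted p = 0.0270, adjusted p = 0.0885).

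Krt15, a type I keratin of basal and progenitor cells, differed between arrays without regard to the labels. Its files read 0.59, 1.08 and 0.010 for PN1 to PN3, against 0.47, 1.04 and 0.16 for WT1 to WT3. Files PN2 and WT2 were the high ones, and the difference was 0.00049 (95% interval −0.79 to 0.79). Its columns read 11.65, 11.67 and 11.27 for PN1 to PN3, against 11.51, 11.12 and 11.79 for WT1 to WT3. The difference in the columns was 0.057 (95% interval −0.45 to 0.56), and neither passed (limma, adjusted p = 1.00 in the files and 0.897 in the columns).

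Of the simple keratins, Krt8 and Krt18 form 1 filament pair and lie next to each other on mouse chromosome 15. Their differences had opposite signs in the columns, so the 250 bases before their starts are shown, with those of Krt10, a keratin of cornifying layers. RefSeq sequences of build GRCm38.p6 were found for 5 of the 10 genes. Capitals mark TATAAA (a core promoter box, in 12.4% of 32851 mouse promoter windows of this length), TGANTCA (AP-1 family, 6.75%) or GCCNNNGGC (AP-2 family, 13.7%), each searched on both strands.
Krt8, chr15:102004343-102004592, minus strand: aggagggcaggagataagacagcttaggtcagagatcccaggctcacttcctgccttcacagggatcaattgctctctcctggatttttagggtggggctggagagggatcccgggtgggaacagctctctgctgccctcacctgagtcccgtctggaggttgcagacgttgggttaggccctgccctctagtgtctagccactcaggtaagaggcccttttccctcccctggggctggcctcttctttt
Krt18, chr15:102027966-102028215, plus strand: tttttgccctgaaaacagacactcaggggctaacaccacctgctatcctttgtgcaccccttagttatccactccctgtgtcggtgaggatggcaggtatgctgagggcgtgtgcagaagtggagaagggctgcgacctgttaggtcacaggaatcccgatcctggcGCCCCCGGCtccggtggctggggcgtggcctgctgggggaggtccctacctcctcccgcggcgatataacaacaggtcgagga
Krt10, chr11:99389365-99389614, minus strand: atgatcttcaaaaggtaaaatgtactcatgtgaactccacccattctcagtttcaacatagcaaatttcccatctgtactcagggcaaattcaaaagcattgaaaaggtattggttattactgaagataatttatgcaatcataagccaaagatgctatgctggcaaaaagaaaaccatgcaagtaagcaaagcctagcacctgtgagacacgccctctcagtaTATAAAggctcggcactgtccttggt
The Krt8 window held none of the 3 motifs, the Krt18 window the AP-2 family motif, and the Krt10 window the core promoter box close to its start.

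Krt8 was measured by 2 probes. The brighter probe gave 2.22, 1.81 and 2.11 on files PN1 to PN3, against 2.17, 1.40 and 2.14 on files WT1 to WT3. The other gave 1.64, 1.99 and 1.73 on files PN1 to PN3, against 1.40, 1.15 and 1.43 on files WT1 to WT3. File WT2 was the lowest with both probes, and the groups overlapped with the brighter probe but not with the other. The differences were 0.14 with the brighter probe (95% interval −0.42 to 0.71, limma adjusted p = 1.00) and 0.46 with the other.

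In the columns both probes of Krt8 had the opposite sign. The brighter probe read 12.45, 12.93 and 12.93 for PN1 to PN3, against 13.17, 13.09 and 13.40 for WT1 to WT3. The other probe read 11.69, 12.26 and 12.18 for PN1 to PN3, against 12.29, 12.36 and 12.91 for WT1 to WT3. With both, all 3 Perp-null columns lay under the wild-type columns. The differences were −0.45 (95% interval −0.85 to −0.052) and −0.48. The first did not pass after adjustment (limma, unadjusted p = 0.0314, adjusted p = 0.0992).

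Krt18, the type I partner of Krt8, gave 3.43, 3.74 and 3.03 on files PN1 to PN3, against 2.35, 3.30 and 3.41 on files WT1 to WT3. Its columns read 14.17, 14.57 and 14.85 for PN1 to PN3, against 13.28, 14.35 and 14.55 for WT1 to WT3. Sample WT1 was the lowest in both sets, and the groups overlapped. The differences were 0.38 in the files (95% interval −0.37 to 1.14, limma adjusted p = 1.00) and 0.47 in the columns (95% interval −0.28 to 1.22, adjusted p = 0.364).

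Krt19, a type I keratin of simple epithelium that is also known from dental epithelium, gave −0.33, −2.54 and −1.45 on files PN1 to PN3, against −0.91, −1.12 and −1.17 on files WT1 to WT3. Its columns read 10.06, 9.65 and 9.03 for PN1 to PN3, against 10.08, 9.83 and 10.45 for WT1 to WT3. The labelled Perp-null arrays spread more widely in the files, with an SD of 1.11 against 0.14 on those labelled wild type. The differences were −0.37 in the files (95% interval −1.65 to 0.91, limma adjusted p = 1.00) and −0.54 in the columns (95% interval −1.28 to 0.20, adjusted p = 0.282).

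**Figure D3:**
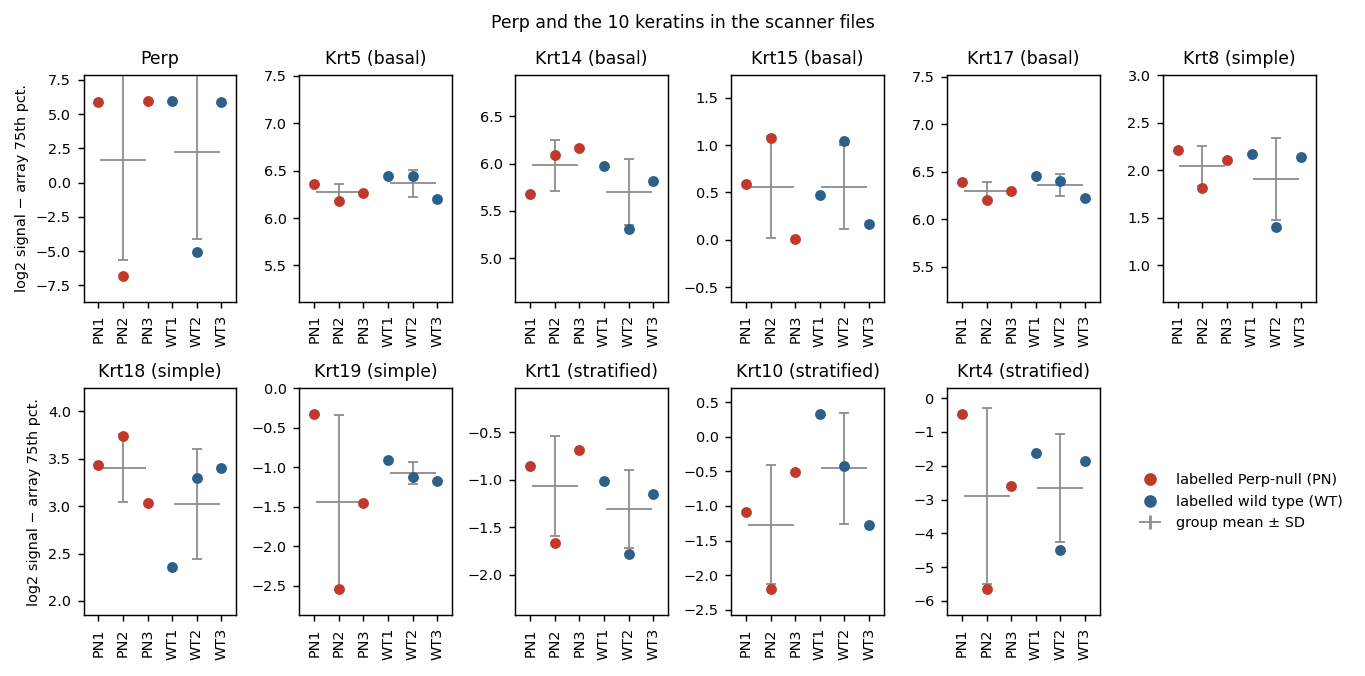
Log2 signal of Perp and the 10 keratins in the 6 scanner files, scaled to the 75th percentile, labelled Perp-null (red) and wild type (blue), with group means ± SD as grey bars. Perp is low on files PN2 and WT2, and Krt4 is lowest on the same files, at −5.65 and −4.50.

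Among the keratins of upper layers, Krt1 and Krt10 are the pair of cornifying epidermis. Krt1 gave −0.86, −1.67 and −0.68 on files PN1 to PN3, against −1.01, −1.78 and −1.15 on files WT1 to WT3. Its columns read 9.56, 10.03 and 9.76 for PN1 to PN3, against 9.83, 9.86 and 9.47 for WT1 to WT3. Files PN2 and WT2 were the low ones and the groups overlapped. The differences were 0.24 in the files (95% interval −0.61 to 1.09, limma adjusted p = 1.00) and 0.063 in the columns (95% interval −0.50 to 0.63, adjusted p = 0.897).

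Krt10 ranged over 2.53 log2 units in the files, against 1.09 for Krt1. Its files read −1.09, −2.20 and −0.52 for PN1 to PN3, against 0.33, −0.42 and −1.28 for WT1 to WT3. Its columns read 10.67, 10.09 and 9.41 for PN1 to PN3, against 11.39, 9.78 and 9.42 for WT1 to WT3. Sample WT1 was the highest in both sets. The differences were −0.82 in the files (95% interval −2.13 to 0.50, limma adjusted p = 1.00) and −0.14 in the columns (95% interval −1.38 to 1.10, adjusted p = 0.896).

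Krt4, the type II keratin of oral and oesophageal mucosa, was lower in the Perp-null columns. The columns read 7.79, 8.04 and 7.63 for PN1 to PN3, against 9.14, 9.08 and 10.08 for WT1 to WT3. All 3 Perp-null columns lay below the wild-type ones. The difference was −1.61 (SE 0.33, 95% interval −2.38 to −0.85), a 3.06-fold lower value, and it passed (limma, adjusted p = 0.0216). It did not pass without column PN2 (difference −1.72, adjusted p = 0.0693) or without column PN3 (difference −1.52, adjusted p = 0.0676). In the files Krt4 gave −0.47, −5.65 and −2.59 for PN1 to PN3, against −1.61, −4.50 and −1.86 for WT1 to WT3, a difference of −0.25 (95% interval −3.61 to 3.11, adjusted p = 1.00).

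The order of the 6 arrays by Krt4 was exactly their order by negative control signal. From the brightest to the dimmest negative controls (files PN1, WT1, WT3, PN3, WT2 and PN2, at 127, 90, 80, 65.5, 37.5 and 32), Krt4 read −0.47, −1.61, −1.86, −2.59, −4.50 and −5.65. Krt4 was the only one of the 10 keratins in that order. Of all features 23.8% were in it, with 45.5% of those under the median signal and 2.08% of those above it. In the columns Krt4 averaged 8.63, under the median feature at 9.06, and the other 9 keratins lay above that median. Among features under the median, 44.6% were called in the columns (27.5% as lower), against 2.41% (2.26% as lower) of those above it. The part of the negative control signal in the lower Krt4 values was not tested.

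**Figure D4:**
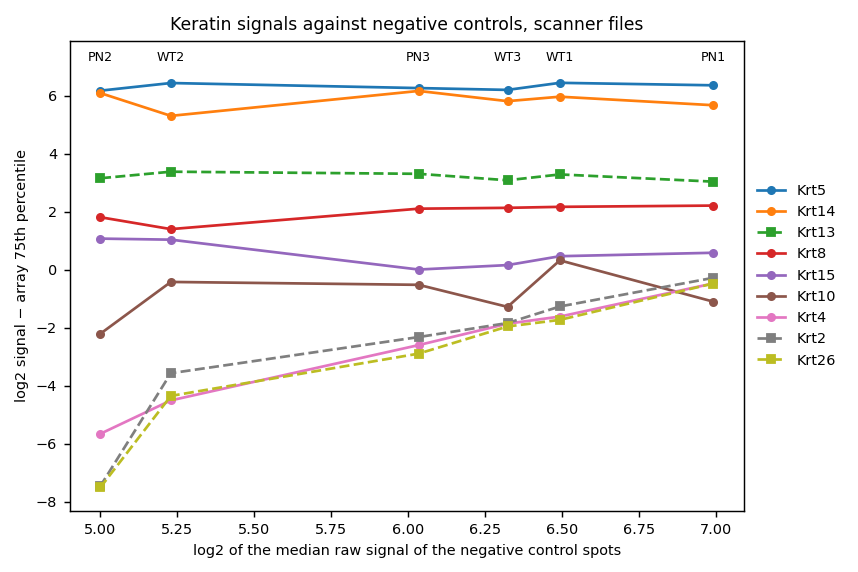
Log2 signal of 9 keratins relative to the 75th percentile of the array, against the log2 of the median raw negative control signal, for the 6 scanner files (named along the top). Solid lines are genes of the 10 and dashed lines are Krt13 (brighter probe), Krt2 and Krt26. Krt4, Krt2 and Krt26 climb from file PN2 to file PN1 in the order of the negative controls, while Krt5 stays between 6.18 and 6.45.

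Set side by side by layer, the basal keratins had the smallest median log2 difference, −0.032 in the files and −0.017 in the columns. For all features it was −0.085 and 0.013. The order of the classes did not hold gene by gene. Basal Krt14 differed by 0.28 in the files and −0.51 in the columns, further than Krt8 of the simple keratins (0.14 and −0.45). The simple keratins had a median of 0.14 in the files and −0.45 in the columns, with 2 of the 3 genes higher in the files and 1 of the 3 in the columns. Without file WT2 the median in the files was −0.11. The median of the 3 genes taken per array and then averaged by group differed by −0.18 in the files and by −0.30 in the columns. The stratified keratins had medians of −0.25 and −0.14. With the median taken per array and averaged by group, the stratified keratins differed by −0.43 in both sets. The basal keratins differed in that way by −0.020 in the files and −0.046 in the columns. In each class 0 genes were called in the files, and in the columns the 1 call was Krt4. The widest range of a gene over the 6 arrays was 1.07 log2 units among the basal, 2.21 among the simple and 5.18 among the stratified keratins in the files. It was 1.09, 1.57 and 2.45 in the columns.

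**Figure D5:**
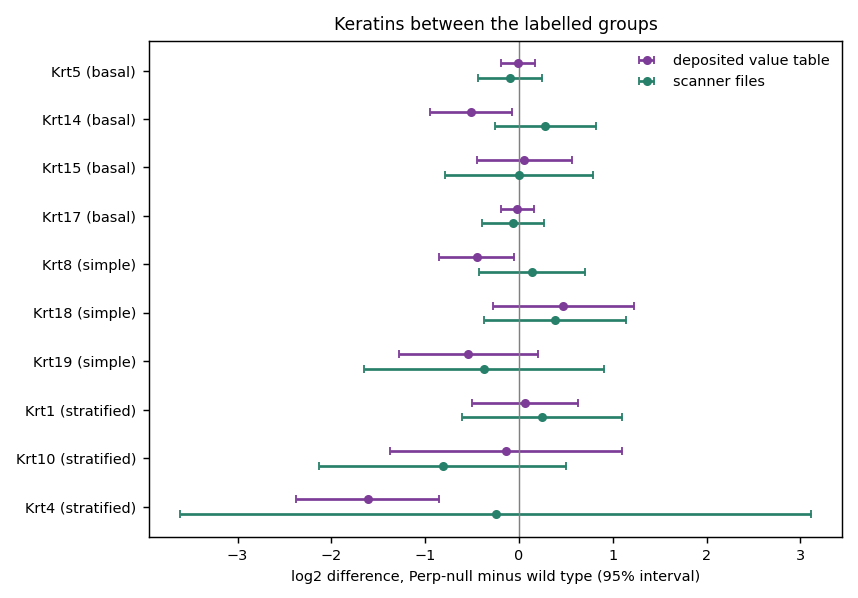
Log2 difference of each of the 10 keratins, Perp-null minus wild type, with its 95% interval, in the value table (purple) and the scanner files (green). The interval of Krt4 runs from −2.38 to −0.85 in the table and from −3.61 to 3.11 in the files, and Krt14 and Krt8 lie on opposite sides of 0 in the 2 sets.

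Of 44 other keratins listed, 26 passed the filter on dim probes. In the files 0 of them were called, with 9 higher and 17 lower means and a median difference of −0.14. In the columns 0 were called higher and 7 lower: Krt12, Krt20, Krt2, Krt90, Krt26, Krt86 and Krt87. Beside them 14.9% of all features were called lower, and 27.5% of those under the median value, where these 7 lay. Each of these 7 was also in the order of the negative controls in the files, as were 11 of the 26. Krt2, a keratin of the upper epidermis, read 8.11, 7.77 and 6.89 in columns PN1 to PN3, against 9.69, 9.19 and 10.73 in columns WT1 to WT3 (difference −2.28, SE 0.47, limma adjusted p = 0.0216). A second, dimmer probe of Krt2, above background on 4 of the 6 files, differed by −0.62. Krt26 and Krt87 of the hair follicle differed by −2.23 (SE 0.42) and −2.54 (SE 0.49), both with an adjusted p of 0.0216. Krt20, known from gut lining and Merkel cells, differed by −1.44 (adjusted p = 0.0462) and Krt12 of the cornea by −0.48 (adjusted p = 0.0440).

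These called keratins thus included those of cornea, hair and gut lining. Krt20, Krt2 and Krt26 were at −7.89, −7.46 and −7.50 on file PN2, the array with the dimmest negative controls, and Krt20, Krt12 and Krt2 were well above background on 5 of the 6 files. Krt13, the type I partner of Krt4 (named after its values were seen), was measured by 2 probes that disagreed. The brighter probe of Krt13 gave 3.04, 3.16 and 3.31 on files PN1 to PN3, against 3.29, 3.38 and 3.09 on files WT1 to WT3, with a difference of −0.083 (SE 0.13). In the columns its difference was −0.20 (limma, adjusted p = 0.419). The other probe of Krt13 gave 0.27, −4.98 and −1.92 on files PN1 to PN3, against −0.98, −3.31 and −1.09 on files WT1 to WT3, in the same order of arrays as Krt4 and the negative controls. Its columns read 8.34, 8.55 and 7.63 for PN1 to PN3, against 10.01, 9.91 and 11.40 for WT1 to WT3, a difference of −2.27 with groups that did not overlap. The brighter probe stood for the gene in the fit, so the other has no p. Krt79 of the epidermal appendages had a difference of −0.73 (SE 1.03) in the files and 0.40 (SE 0.27, adjusted p = 0.343) in the columns.

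Of 11 genes whose proteins anchor keratin filaments at junctions, 0 were called in the files, and in the columns 1 was called higher and 0 lower, beside 8.64% and 14.9% of all features called. Dst, a linker of hemidesmosomes, had a difference of −0.49 (SE 0.47) in the files and −0.17 (SE 0.50) in the columns. Col17a1, a collagen that spans the membrane at hemidesmosomes, had −0.43 (SE 0.35) and −0.097 (SE 0.32). Neither passed (limma, adjusted p = 0.866 and 0.879 in the columns, 1.00 in the files).

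Of 20 genes of cornified and upper layers tested, 0 were called in the files, and in the columns 4 were called higher and 3 lower, where 8.64% of all features were called higher and 14.9% lower (27.5% lower among those under the median). Sprr3, a small proline-rich protein of the cornified envelope of mucosa, had a difference of 1.10 (SE 0.82) in the files and 0.79 (SE 0.43, limma adjusted p = 0.241) in the columns. Cnfn, cornifelin of the cornified envelope, read 8.61, 9.91 and 8.94 in columns PN1 to PN3, against 8.21, 7.60 and 8.20 in columns WT1 to WT3. The Perp-null columns of Cnfn lay above the wild-type ones, but the difference of 1.15 (SE 0.38) did not pass (limma, adjusted p = 0.0637). Of the list, 7 genes were in the order of the negative controls in the files, and Cnfn and Sprr3 were not among them.

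Of 13 epithelial transcription factors, 0 were called in the files, and in the columns 1 was called higher and 0 lower, beside 8.64% and 14.9% of all features. Elf3, an ETS factor of differentiating epithelium, had a difference of 0.92 (SE 0.78) in the files and 1.15 (SE 0.36, limma adjusted p = 0.0507) in the columns. Ovol1, a zinc finger factor of epidermal differentiation, had 0.66 (SE 0.67) and 0.11 (SE 0.36). Trp63, which encodes p63, the main factor of stratified epithelium, was named after its values were seen and differed by −0.10 (SE 0.13) in the files and by 0.12 in the columns (limma, adjusted p = 0.451).

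The 3 named genes nearest to Krt14 in shape over the 6 files were Rgp1, Eaf1 and Garnl3, at root mean square distances of 0.052, 0.083 and 0.087 log2 units after each gene was centred on its mean. Over the 6 columns they were Spcs1, Smim14 and Gphn, at 0.079, 0.090 and 0.12. For Krt10 the nearest were Steap2, Prelp and Ggt5 in the files (0.099, 0.12 and 0.12) and Aif1l, Scara5 and Hsd17b11 in the columns (0.18, 0.19 and 0.19). For Krt4, added after its values were seen, the nearest in the columns was Cldn4, a claudin of epithelial tight junctions, at 0.049. Cldn4 read 8.28, 8.64 and 8.21 in columns PN1 to PN3, against 9.61, 9.65 and 10.66 in columns WT1 to WT3. Grid1 and Slc5a2 followed, at 0.091 and 0.096.

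Bulk tissue was measured, so fewer epithelial cells and less keratin RNA per cell cannot be told apart. The 12 genes of epithelia in general had a median difference of 0.17 in the files and 0.087 in the columns, with 0 called in each. Their summed level ran from 5.10 to 5.36 on the files labelled Perp-null, against 4.92 to 5.15 on those labelled wild type. In the columns it ran from 16.02 to 16.22 for Perp-null, against 15.92 to 16.28 for wild type. The 8 mesenchyme genes had a median difference of −0.71 in the files and 0.11 in the columns, and the 6 vessel genes −1.12 and 0.60, with 0 called in the files and 1 vessel gene called lower in the columns. The summed mesenchyme level ran from 6.09 to 6.70 on the files labelled Perp-null, against 6.83 to 7.19 on those labelled wild type. It ran from 17.50 to 17.97 in the Perp-null columns, against 17.20 to 17.96 in the wild-type columns. The part of such shifts in the keratin values was not tested.

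The 11 enamel organ genes had a median difference of −0.10 in the files and −0.41 in the columns, with 0 called in each. The remaining marker lists were small. Medians in the files and the columns were −0.54 and −0.30 for 7 genes of odontoblasts and bone, 0.10 and 0.0083 for 4 of salivary gland, −0.85 and 0.20 for 4 of macrophages and 0.75 and −0.295 for 6 of skeletal muscle. The 4 genes of mesothelium and Merkel cells, cell types that also carry Krt8, Krt18 or Krt20, had medians of −0.97 and −0.92, and 3 of them were called lower in the columns, where 14.9% of all features and 27.5% of those under the median were. Those 3, Upk3b, Atoh1 and Krt20, were in the order of the negative controls in the files as well.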

How the data were processed

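RNA of 6 tooth germ samples was hybridised to 1-colour whole-genome mouse arrays, per the labels' protocols. The scanner files hold linear spot intensity as deposited, extracted with Agilent Feature Extraction 10.5.1.1 per the file headers (10.3 per the submitters' processing notes). The processed signal is background-subtracted and not scaled between arrays. The deposited value table holds the authors' log2 values. In the 5 columns that matched a file the ranks are those of its raw median signal, not background-subtracted. Column PN2 matched no file. All 6 columns have a 75th percentile of 10.98 and medians of 8.36 to 8.39. The authors' normalization is not given in the sources used here. No centring per gene was seen.

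Of the files, log2 of the processed signal minus the 75th percentile of the 41174 gene probes was used. The 1417 control spots and spots flagged as outliers were left out. Probes were named by RefSeq accession (60.3%). Probes above background on at least 3 arrays were kept, with the brightest per gene. The value table was tested on the same probes. The comparison used limma 3.58.1 (R 4.3.3) with a variance trend. Adjustment was by Benjamini-Hochberg across all 26677 features, with a threshold of 0.05. The fit was tried on simulated data with independent noise in each value and changes planted among the less variable features. Differences shared by many features of an array were not simulated. The files' sample names were kept as deposited, and no array was regrouped by its values.

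Same-numbered files deviated together (correlations 0.843, 0.876 and 0.193 for numbers 1 to 3). Files PN1 and WT3 (0.727) and files PN3 and WT1 (0.495) did so as well. The remaining pairs of unlike number had negative correlations, from −0.914 to −0.407. The reported fits of both sets left the replicate number out, and it served as a block only among the alternatives. Among the files, those sharing a replicate number also shared a slide position. This did not hold among the columns. Columns PN1 and PN3 matched files at position 2, columns WT1 and WT3 files at position 1, and column WT2 a file at position 3. In the columns the replicate block is therefore not a block for slide position. In the columns the correlations of same-numbered samples were 0.408, 0.393 and −0.0226. The members, lists and tests were chosen with earlier results of these data known. Named genes were the 10 keratins, the 2 largest differences per list in the files and the 3 genes nearest in shape to Krt14 and to Krt10 (symbols of the Gm and Rik kind left out). The alternatives were other scalings, background corrections, filters, probe rules and variance models, the replicate block, the value table and leaving out each sample. The set of alternatives run on the value table was chosen after the mismatch was seen.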

Additional observations from a re-analysis of the deposited data

How the results depend on the processing

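In the files, 0 of 10 keratins were called under every scaling, background correction, filter, probe rule and variance model tried, with the replicate block and without each array in turn. As labelled, each file group held arrays of high and of low Perp, so this count cannot show whether loss of Perp changes the keratins. The count of all features was 1 in place of 0 with normexp and the 75th percentile, with array weights or with the replicate block. With the value table the counts were 6269 features and 1 keratin, and the median of the simple keratins was −0.45; the sample names, the scaling and the background treatment change together there. Signs turned for differences that were not called. Krt4 was 0.051 with quantile normalization, 0.13 with normexp and quantile normalization and 0.20 without WT2 and PN2. Krt15 was −0.089 with median scaling, −0.17 and −0.10 with normexp (75th percentile and quantile), −0.32 with array weights and −0.017 without WT2 and PN2. The median of all features was −0.23 with normexp and the 75th percentile, against −0.085 in the reported fit. Krt5 and Krt17 were 0.010 and 0.054 under that setting, and Krt17 and Krt19 were 0.0050 and 0.15 without WT2 and PN2. Krt14 and Krt8 were −0.51 and −0.45 in the value table. Without each array in turn the count of called features stayed at 0. The medians ran from −0.15 to 0.060 (basal), −0.11 to 0.26 (simple) and −0.90 to 0.54 (stratified). Krt15 ran from −0.26 to 0.27, Krt8 from −0.11 to 0.28, Krt19 from −0.93 to 0.18 and Krt4 from −1.47 to 1.12. Without PN2 alone Krt4 was at the upper end.

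In the columns the count of 6269 fell to 1 feature and 0 keratins with the replicate block, where the Krt4 adjusted p in limma was 0.0538. It was 1 feature and 0 keratins among features at or above the median value, a setting that leaves Krt4 out. Array weights gave −0.31 for the simple median. Without each column in turn, 1 to 5899 features and 0 to 1 keratins were called: 3188 features without WT1, 2662 without WT3, 1 without PN2 and 787 without PN3 (727 higher, 60 lower). The medians ran from −0.083 to 0.012 (basal), −0.53 to −0.27 (simple) and −0.53 to 0.12 (stratified). Krt5 ran from −0.045 to 0.020, Krt17 from −0.042 to 0.0033, Krt15 from −0.12 to 0.22, Krt1 from −0.062 to 0.18 and Krt10 from −0.53 to 0.46. Krt4 kept its sign in all settings that tested it, from −1.79 to −1.27, with limma adjusted p from 0.00782 to 0.0693. The causes were not tested. Precision is limited by having 3 arrays per group.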
